A study of Mus musculus with 40 samples.

Results

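The genes described here are the mouse deubiquitinases of the USP, OTU and UCH families, picked by symbol (Usp followed by a digit, Otud, Otub or Uchl, pseudogenes left out) and by a mean level of at least 1 CPM (counts scaled to the library total) over the 40 libraries. Of 73 genes whose symbol matched, 55 passed, out of 52029 genes with a symbol in the table. They were 43 USP genes, 8 OTU genes, 3 UCH genes and Usp6nl, which carries a USP-like symbol but encodes a Rab GTPase-activating protein. The rule used the mean level only and not the response to any condition. The gene just inside the level was Otub2, at 1.18 CPM, and the gene just outside was Uchl4, at 0.203 CPM. Of the 18 genes left out, 10 had no count in any library. Otulin, Cyld and Tnfaip3, which are deubiquitinases too, were not among the 55.

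The study measured bone marrow-derived macrophages, which are macrophages grown from mouse bone marrow in L929 cell-conditioned medium, after 0, 3, 6, 12 and 24 h of 500 ng/ml ultrapure lipopolysaccharide (LPS) from Salmonella minnesota, a ligand of the receptor TLR4. The WT group carried floxed Otulin alleles (Otulin FL/FL) and no Cre. The KO group carried the same floxed alleles with 1 copy of the LysMCre transgene (OtulinFL/FL LysMCreTg/WT), which is driven from the lysozyme M gene in myeloid cells. Each genotype and time had 4 libraries, from biological replicates per the submitters, and no group of Cre carriers without floxed alleles was analysed here, so loss of Otulin and presence of Cre cannot be told apart. No source used here gives the ages of the mice. Untreated libraries were taken at 0 h only, so LPS and the hours in culture cannot be told apart. A response to LPS below means a later time against 0 h.

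Ubiquitin is a small protein that is attached to other proteins singly or in chains, and the chains mark proteins for the proteasome or build signalling platforms. Deubiquitinases cut these links. USP, OTU and UCH enzymes are all cysteine proteases, and they differ in fold and in the chain types they cut. In macrophages, chains made below TLR4 carry the signal to NF-kB and to the interferon regulatory factors, and deubiquitinases are known both as brakes of these pathways and as genes induced by them.

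The libraries were made from the 3′ ends of transcripts and held 3615155 to 6829303 counts, with a median of 4471933; the 55 genes took 0.265% to 0.361% of a library. All 8 macrophage markers examined were detected, at a summed 3746 to 7945 CPM. Lists of B cell, T cell, mast cell, stromal and neuronal markers held no gene with a mean of 1 CPM or more. Summed neutrophil markers ranged from 16.0 to 56.9 CPM for KO and from 28.0 to 79.8 CPM for WT, with 3 of 8 at 1 CPM or more. Of 4 dendritic cell markers, 2 had a mean of 1 CPM or more, and their sum moved with LPS, from 1.32 to 2.97 CPM at 0 h to 13.4 to 20.4 CPM at 24 h in WT and from 0.723 to 1.74 CPM to 7.89 to 19.0 CPM at 12 h and 6.39 to 12.8 CPM at 24 h in KO. The part of these markers in the LPS responses was not tested. Otulin differed between the genotypes without overlap and in opposite directions: at 3 h KO held 31.4 to 33.5 and WT 36.4 to 47.5 CPM, at 6 h KO 29.0 to 33.5 and WT 35.7 to 42.3, and at 24 h KO 45.2 to 51.7 and WT 27.6 to 37.1. None of these differences passed edgeR's test (adjusted p = 0.0564, 0.291 and 0.0704), and at 0 and 12 h the libraries overlapped. Since a 3′ tag need not lie in the floxed part, these levels are no check of the genotype. In RNA from a whole culture, fewer cells of a type and less RNA per cell cannot be told apart. Levels below are CPM after TMM scaling over the 40 libraries, and as counts of 3′ ends they carry no factor of transcript length. Changes are log2 fold changes with their standard error (SE) and the adjusted p (Benjamini-Hochberg over all genes tested) of edgeR's quasi-likelihood test, with a threshold of 0.05.

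Promoter windows are shown for genes that rose together early (Otud1, Usp12, Usp25), for genes that fell (Usp2, Usp31) and for the 1 gene whose window held an interferon-type motif (Usp49). Each window runs from 250 bases before to 50 bases after the annotated start, 5′ to 3′ on the gene's strand, from RefSeq on GRCm38.p6. Capitals mark the canonical E-box CACGTG, the site read by clock and MYC-type factors, or the core of the interferon-stimulated response element (GAAA, NN for any bases, then GAAA).
Otud1, chr2:19657481-19657780, plus strand: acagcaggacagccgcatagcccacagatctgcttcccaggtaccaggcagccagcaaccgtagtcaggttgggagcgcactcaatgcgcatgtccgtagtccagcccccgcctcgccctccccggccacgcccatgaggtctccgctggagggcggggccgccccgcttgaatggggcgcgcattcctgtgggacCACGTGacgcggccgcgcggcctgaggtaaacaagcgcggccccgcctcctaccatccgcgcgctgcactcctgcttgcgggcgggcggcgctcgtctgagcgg
Usp12, chr5:146794907-146795206, minus strand: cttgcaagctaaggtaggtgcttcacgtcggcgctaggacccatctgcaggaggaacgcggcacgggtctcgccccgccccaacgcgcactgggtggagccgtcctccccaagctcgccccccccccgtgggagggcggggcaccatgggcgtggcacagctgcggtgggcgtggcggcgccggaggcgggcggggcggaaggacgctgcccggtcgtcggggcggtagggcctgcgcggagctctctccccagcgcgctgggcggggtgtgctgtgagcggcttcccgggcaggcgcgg
Usp25, chr16:77013819-77014118, plus strand: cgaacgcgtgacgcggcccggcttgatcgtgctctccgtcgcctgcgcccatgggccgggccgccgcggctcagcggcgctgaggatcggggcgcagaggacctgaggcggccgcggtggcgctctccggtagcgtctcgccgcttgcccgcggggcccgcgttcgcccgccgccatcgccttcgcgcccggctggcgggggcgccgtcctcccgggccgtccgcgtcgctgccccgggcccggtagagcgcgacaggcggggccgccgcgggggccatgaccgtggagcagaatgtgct
Usp2, chr9:44084670-44084969, plus strand: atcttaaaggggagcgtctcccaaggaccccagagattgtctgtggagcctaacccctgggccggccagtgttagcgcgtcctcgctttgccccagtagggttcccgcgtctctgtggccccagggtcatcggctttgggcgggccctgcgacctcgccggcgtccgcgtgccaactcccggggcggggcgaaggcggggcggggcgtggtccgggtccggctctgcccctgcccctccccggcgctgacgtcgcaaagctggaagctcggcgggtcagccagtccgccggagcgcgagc
Usp31, chr7:121707393-121707692, minus strand: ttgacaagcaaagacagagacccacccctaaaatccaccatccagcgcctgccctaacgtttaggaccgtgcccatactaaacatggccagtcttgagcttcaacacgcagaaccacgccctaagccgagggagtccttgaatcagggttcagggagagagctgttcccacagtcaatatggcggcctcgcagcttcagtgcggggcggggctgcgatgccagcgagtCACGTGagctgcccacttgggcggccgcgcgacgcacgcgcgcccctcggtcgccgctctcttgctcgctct
Usp49, chr17:47630440-47630739, plus strand: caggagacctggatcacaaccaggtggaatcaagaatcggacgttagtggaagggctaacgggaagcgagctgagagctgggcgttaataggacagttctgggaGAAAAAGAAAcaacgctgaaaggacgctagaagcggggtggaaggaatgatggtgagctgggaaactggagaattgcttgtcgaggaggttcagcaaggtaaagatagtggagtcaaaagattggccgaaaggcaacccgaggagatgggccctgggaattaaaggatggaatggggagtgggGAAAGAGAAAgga

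The RefSeq table held a window for 43 of the 55 genes. Usp18, Usp42, Usp22 and Usp53 were among the 12 without one, so no motif was searched for in them. On both strands, the response element core was in 1 of the 43 windows (2.33%; Usp49, with 2 copies on the plus strand that do not overlap each other) and in 3.99% of the windows of all 27025 genes. The NF-kB consensus was in 1 of 43 (2.33%; Usp27x) and in 9.55% of all. The E-box was in 7 of 43 (16.3%; Otud1, Otud3, Usp16, Usp31, Usp32, Usp4 and Usp6nl) and in 8.09% of all. None of the 6 windows shown held motifs that overlapped a different motif. Genes with an E-box did not share a direction: Otud1 and Usp32 were higher at 6 h of LPS, Usp31 was lower at 12 and 24 h, and Otud3 passed the test at no time.

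Most of these genes changed after LPS, in both directions. In WT, Usp18, Usp25, Otud1, Usp12 and Usp42 rose by 3 h, Usp35, Usp53, Usp11, Usp49 and Usp22 reached their highest changes at 12 or 24 h, Usp2 fell by 3 h and stayed low, Usp36 and Uchl3 were lower at all 4 times, and Usp10 and Usp31 fell after 3 h. The log2 fold changes at 6 h ran from -3.43 (Usp2) to 7.08 (Usp18). Of the 55 genes, 54 could be tested and Otub2 was too low. At 3 h, 19 of the 54 were higher and 11 lower than at 0 h in WT, beside 26.6% higher and 28.0% lower among all 12151 genes tested. The counts were 22 and 17 at 6 h (all genes 31.0% and 37.1%), 20 and 17 at 12 h (32.3% and 35.9%) and 22 and 20 at 24 h (34.5% and 35.4%). The median change of the 54 lay between 0.05 and 0.10 at the 4 times, beside -0.09 to -0.02 over all genes. In KO, 19 were higher and 10 lower at 3 h (all 12037 genes 22.9% and 25.7%), 21 and 13 at 6 h (28.7% and 36%), 21 and 17 at 12 h (30.7% and 34.0%) and 23 and 13 at 24 h (32.8% and 33.0%). Over the 8 comparisons, 35.2% to 42.6% of the 54 were higher and 18.5% to 37.0% lower, and the difference of these shares from those of all genes was not tested. DESeq2 and the fit without WT replicate 2 each called 7 genes lower at 3 h in WT in place of 11.

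**Figure D1:**
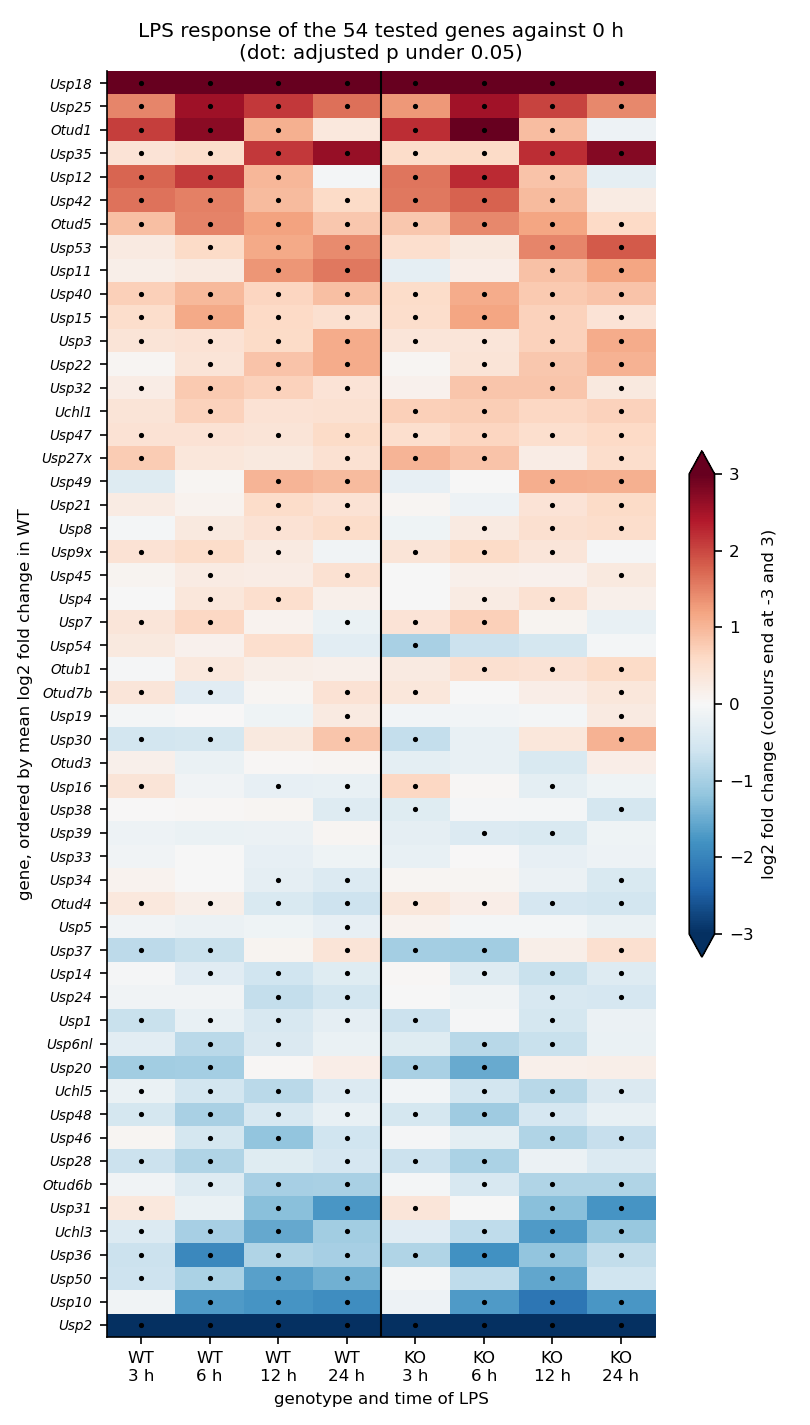
Log2 fold change of each of the 54 tested genes (rows, ordered by their mean change in WT) at 3, 6, 12 and 24 h of LPS against 0 h, in WT (left 4 columns) and KO (right 4 columns). Red is higher and blue lower than at 0 h, colours end at -3 and 3, and a dot marks an adjusted p under 0.05; Usp18 at the top and Usp2 at the bottom go past the colour scale in both genotypes.

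Over the 4 times in WT, 10 genes were higher at every time (Otud5, Usp15, Usp18, Usp25, Usp3, Usp32, Usp35, Usp40, Usp42 and Usp47) and 7 were lower at every time (Uchl3, Uchl5, Usp1, Usp2, Usp36, Usp48 and Usp50). A further 7 passed the test in opposite directions at different times (Otud4, Otud7b, Usp16, Usp30, Usp31, Usp37 and Usp7), and 4 passed at no time (Otud3, Usp33, Usp39 and Usp54). Of the 7 lower at every time in WT, only Usp2 and Usp36 kept all 4 calls whichever WT replicate was left out. Uchl5 lost its call at 3 h without WT replicate 2 or 3. Usp1 lost its call at 6 h without WT replicate 2 or 3, and at 24 h without WT replicate 2. Of the 10 higher at every time, Usp32 and Usp35 also lost calls when 1 WT replicate was left out. In KO, 8 were higher and 2, Usp2 and Usp36, were lower at every time. These classes over time were not counted over all genes, so they are not shown to be particular to this set. From step to step in WT, 25 of the 54 changed between 3 and 6 h (all genes 42.3%), 33 between 6 and 12 h (45.6%) and 24 between 12 and 24 h (39.6%). The step from 6 to 12 h had 13 genes higher and 20 lower in each genotype. In KO, 22 changed between 3 and 6 h (40.6%), 33 between 6 and 12 h (44.8%) and 20 between 12 and 24 h (36.9%). Summed over the 55 genes, the level was 2642 ± 57.6 CPM at 0 h, 3971 ± 117 at 6 h and 3070 ± 107 at 24 h in WT (SD, n = 4). Usp18 made up 0.100% of that sum at 0 h and 9.10% at 6 h, and Usp25 made up 3.63% and 14.2%. Shares and sums of 3′ counts compare molecules counted and not transcript length.

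Usp18 removes the ubiquitin-like protein ISG15 from its targets and, by binding the interferon receptor chain IFNAR2, dampens type I interferon signalling. Its level in the 4 WT libraries was 2.18, 3.47, 2.77 and 2.19 CPM at 0 h, 125, 155, 156 and 162 CPM at 3 h, 376, 378, 367 and 325 CPM at 6 h, and 176, 207, 194 and 181 CPM at 24 h. No library after LPS came near the 0 h range in WT, and the peak was at 6 h. The log2 fold change in WT was 5.81 ± 0.14 (SE) at 3 h, 7.08 ± 0.14 at 6 h (adjusted p = 1.34e-23), 6.44 ± 0.14 at 12 h and 6.16 ± 0.14 at 24 h, and it fell between 6 and 12 h by 0.65 ± 0.09 on the log2 scale. The 0 h value rests on 68 counts over 4 libraries, so the size of the fold is less certain than its direction. In KO the change at 6 h was 7.16 ± 0.14, from 2.83 ± 0.72 CPM to 404 ± 27.6 CPM (SD, n = 4).

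Around Usp18, the genes of the ISG15 pathway moved the same way: all 10 listed genes were higher at all 4 times in both genotypes, with a median log2 fold change of 3.10 in WT at 6 h, where the median of all genes was -0.09. Isg15, the modifier itself, rose by 6.07 ± 0.20 (log2, SE), Herc6, the ISG15 ligase of mouse, by 4.96 ± 0.11, and the interferon-signalling factor Stat2 by 4.07 ± 0.10. In WT the change of Usp18 was above that of every gene of the list at all 4 times. In KO at 24 h it was 5.85, below the 5.97 of Isg15.

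**Figure D2:**
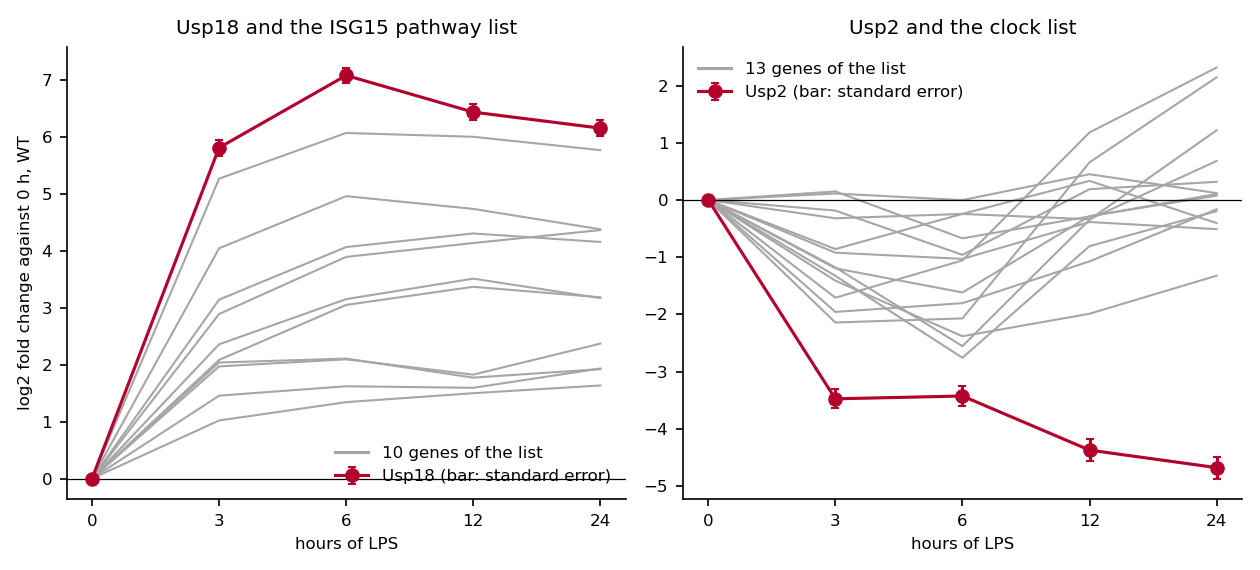
Log2 fold change against 0 h in WT over 3, 6, 12 and 24 h of LPS for Usp18 with the 10 genes of the ISG15 pathway list (left) and for Usp2 with the 13 tested genes of the clock list (right). Red points are Usp18 or Usp2 with their standard error and each grey line is a gene of the list; Usp18 lies above its list throughout, while Usp2 lies below its list and, unlike most grey lines, does not return towards 0 at 24 h.

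Of the genes known from innate and NF-kB signalling (11 listed, 10 tested), 6 were higher and none lower at 3 h in WT. The counts were 7 higher and 1 lower at 6 h, 7 and 1 at 12 h, and 6 and 1 at 24 h. In KO the counts were 6 and 0, 7 and 0, 8 and 1, and 7 and 1. Among all genes in WT, 26.6% were higher and 28.0% lower at 3 h, and 31.0% and 37.1% at 6 h. These shares were 32.3% and 35.9% at 12 h, and 34.5% and 35.4% at 24 h. No list of genes was tested against the shares of all genes. Usp25, which acts on the TRAF adaptor proteins and had the highest mean CPM of the 55, measured 95.5, 101, 95.1 and 92.2 CPM at 0 h and 533, 633, 593 and 495 CPM at 6 h in the WT libraries. Every WT library at 3, 6, 12 and 24 h was above every one at 0 h, with log2 fold changes of 1.47 ± 0.10, 2.55 ± 0.10 (adjusted p = 6.22e-18), 2.12 ± 0.10 and 1.65 ± 0.10. Otud5, which trims chains from the adaptor TRAF3, rose at all 4 times, by 1.49 ± 0.09 at 6 h, and Usp15, known from TGF-beta receptor signalling, by 1.15 ± 0.09 at 6 h. Otud4 went from higher at 3 h (0.31) to lower at 24 h (-0.62), and its call at 6 h (0.18) was lost without any 1 of the WT replicates. Otud7b, known as Cezanne and as a restraint on NF-kB, was higher at 3 h (0.37) and 24 h (0.43) and lower at 6 h (-0.33), the last lost without WT replicate 2.

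Otud1, an OTU enzyme described in innate immune signalling, rose for a limited time. The WT libraries held 9.96, 9.24, 10.6 and 11.4 CPM at 0 h, 39.3, 46.1, 41.7 and 45.7 CPM at 3 h, 79.8, 68.8, 77.8 and 46.2 CPM at 6 h, 24.5, 25.3, 22.6 and 13.7 CPM at 12 h, and 10.2, 19.0, 11.6 and 10.8 CPM at 24 h. Levels at 3 and 6 h did not overlap with 0 h, and those at 24 h did. The log2 fold change was 2.06 ± 0.19 at 3 h, 2.72 ± 0.19 at 6 h (adjusted p = 1.16e-11), 1.06 ± 0.21 at 12 h and 0.32 ± 0.22 at 24 h, the last with adjusted p = 0.196 (0.0317 without WT replicate 4). Between 6 and 12 h it fell by 1.66 ± 0.18 on the log2 scale in WT and by 2.12 ± 0.14 in KO.

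Usp12, which with Usp1 and Usp46 depends on the cofactor UAF1 for activity, followed a similar course. In WT it was at 44.2 ± 0.93 CPM at 0 h, 149.5 ± 14.8 at 3 h, 189 ± 9.84 at 6 h, 88.9 ± 5.41 at 12 h and 42.4 ± 3.26 at 24 h (SD, n = 4). Its log2 fold change was 2.09 ± 0.08 at 6 h (adjusted p = 1.38e-18) and -0.06 ± 0.08 at 24 h (adjusted p = 0.505). The other UAF1 partners went the opposite way: Usp1 was lower at 3 h (-0.67 ± 0.08) and Usp46 at 12 h (-1.18). Usp42 rose with Otud1 and Usp12, from 33.6, 35.1, 33.2 and 33.6 CPM at 0 h to 102, 100.1, 105 and 117 CPM at 3 h in WT, and came down more slowly, with changes of 1.64 ± 0.09, 1.51 ± 0.09, 0.95 ± 0.09 and 0.58 ± 0.09 at 3, 6, 12 and 24 h.

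**Figure D3:**
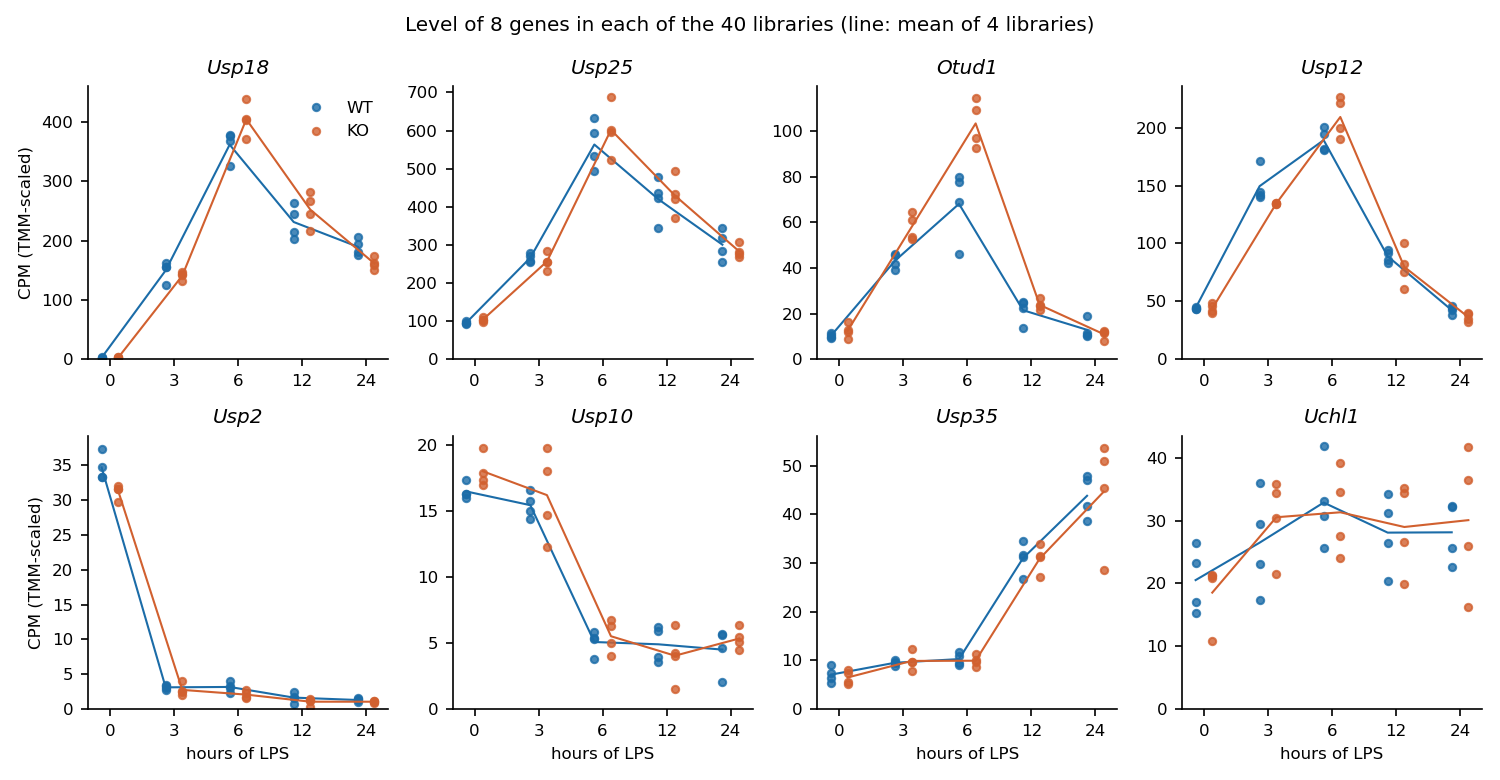
CPM (TMM-scaled, linear axes from 0) of 8 genes against hours of LPS; each point is 1 of the 40 libraries, WT in blue and KO in orange, and lines join the means of 4 libraries. Usp18, Usp25, Otud1 and Usp12 peak at 6 h, Usp2 is lower from 3 h on and Usp10 from 6 h on, Usp35 is high at 12 and 24 h, and Uchl1 is spread widely within every group.

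A second set rose late. The WT libraries held 9.01, 5.45, 6.35 and 7.50 CPM of Usp35 at 0 h, 8.99, 11.0, 9.45 and 11.7 CPM at 6 h, and 38.7, 41.7, 47.0 and 47.9 CPM at 24 h. The early groups overlapped or lay close together and the 24 h group stood far above them. The log2 fold change was 2.12 ± 0.13 at 12 h and 2.62 ± 0.13 at 24 h (adjusted p = 1.43e-15), with 1.60 ± 0.14 of it between 6 and 12 h; the small change at 3 h (0.40 ± 0.16) was lost without WT replicate 2, 3 or 4 and that at 6 h (0.52 ± 0.16) without WT replicate 2. Usp53 rose by 1.14 ± 0.20 at 12 h and 1.43 ± 0.20 at 24 h, from 4.85 ± 0.42 to 13.0 ± 2.73 CPM (SD, n = 4). Usp11, a nuclear enzyme encoded on the X chromosome, rose by 1.33 ± 0.29 and 1.58 ± 0.28 at the same times. Its highest WT library at both times, 13.4 CPM at 12 h and 12.2 CPM at 24 h, was replicate 4, which together with KO replicate 3 had little of the X-inactivation RNA Xist; the 2 libraries with low Xist held 8.27 to 13.4 CPM of Usp11 at 12 h and the other 6 held 4.84 to 6.87 CPM. At 24 h the ranges overlapped, at 8.51 to 12.2 CPM and 5.55 to 9.49 CPM, as they did at 0, 3 and 6 h. Both WT calls were kept without WT replicate 4, and in KO the change was 0.87 ± 0.23 at 12 h, lost without KO replicate 3, and 1.19 ± 0.22 at 24 h.

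Genes that act on histones and chromatin (9 listed, 7 tested) split. Usp22, the H2B enzyme of the SAGA complex, rose from 6 h on and by 1.12 ± 0.08 at 24 h, and Usp3, an H2A enzyme, rose at all 4 times and 2.15-fold at 24 h. Usp49 rose by 1.03 at 12 h and 0.95 ± 0.22 at 24 h, but its 3′ end lies over an exon of Tomm6 on the opposite strand, so its counts are uncertain. Usp36, a nucleolar enzyme, was lower at all 4 times. It held 24.0, 22.8, 19.9 and 22.8 CPM at 0 h and 4.49, 4.59, 4.88 and 9.65 CPM at 6 h in WT, with no overlap and with WT replicate 4 apart from the other 3. Its log2 fold change was -0.66 ± 0.15, -1.93 ± 0.17 (adjusted p = 1.85e-10) and -0.91 ± 0.15 at 3, 6 and 12 h, and the level at 24 h was 1.997-fold lower. Usp7, known for its action on MDM2 and p53, was higher at 3 h (0.37 ± 0.06) and 6 h (0.63 ± 0.06) and slightly lower at 24 h (-0.21 ± 0.06), the last lost without WT replicate 2. Usp16, an H2A enzyme, was higher at 3 h (0.38) and lower at 24 h (-0.23). Its 3′ end lies over an exon of Cct8 on the opposite strand, so its counts are uncertain. The near copy found for it was this same overlapping gene.

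Usp2, whose transcript follows the circadian clock in many tissues, had the largest fall of the 54 at all 4 times in both genotypes. The WT libraries held 37.4, 33.3, 34.8 and 33.3 CPM at 0 h, 2.74, 2.97, 3.31 and 3.48 CPM at 3 h, 4.07, 3.31, 3.05 and 2.29 CPM at 6 h, 2.43, 1.63, 1.80 and 0.747 CPM at 12 h, and 0.950, 1.34, 1.55 and 1.38 CPM at 24 h. Every library after LPS was far below every 0 h library. The log2 fold change was -3.48 ± 0.17 at 3 h, an 11.1-fold lower level, and -4.68 ± 0.19 at 24 h (adjusted p = 2.58e-17), a 25.7-fold lower one resting on 26 counts. In KO it was -3.45 ± 0.21 and -4.84 ± 0.24.

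Other clock genes fell early and then came back. Of the 13 tested genes of a clock list in WT, 8 were lower and none higher at 3 h, and 10 and 0 at 6 h. At 12 h 5 were lower and 3 higher, and at 24 h 2 were lower and 4 higher. Of all genes tested in WT, 28.0%, 37.1%, 35.9% and 35.4% were lower at these 4 times. The shares higher were 26.6%, 31.0%, 32.3% and 34.5%. The median change of the 13 went from -1.18 and -1.06 at 3 and 6 h to 0.11 at 24 h. Over all genes it was -0.05, -0.09 and -0.02. Tef and Dbp, output factors of the clock, were at -2.76 ± 0.13 and -2.56 ± 0.47 at 6 h and at -0.20 ± 0.11 (adjusted p = 0.106) and 1.22 ± 0.28 at 24 h. Per2, a core repressor of the clock, went from -2.07 ± 0.39 to 2.15 ± 0.23, and Bhlhe40, a further repressor, from -2.38 ± 0.17 to -1.32 ± 0.16. The fall of Usp2 at 24 h was deeper than the change of any of the 13. Without untreated libraries at the later times, LPS and the hours in culture cannot be told apart for these clock genes.

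Among genes tied to endosomes, membranes and organelles (9, all tested), 2 were higher and 2 lower at 3 h in WT. The counts were 3 and 4 at 6 h, 3 and 2 at 12 h, and 4 and 1 at 24 h. Of all genes tested in WT, 26.6% were higher and 28.0% lower at 3 h, and 31.0% and 37.1% at 6 h. The shares were 32.3% and 35.9% at 12 h, and 34.5% and 35.4% at 24 h. Usp10, which binds the stress granule protein G3BP1, held 16.2, 16.0, 16.3 and 17.3 CPM at 0 h, 15.8, 14.4, 15.0 and 16.6 CPM at 3 h and 5.35, 3.82, 5.79 and 5.33 CPM at 6 h in WT. The 3 h group overlapped the 0 h group and the 6 h group lay below both. Its log2 fold change was -0.10 ± 0.16 at 3 h (adjusted p = 0.63), -1.70 ± 0.20 at 6 h, -1.77 ± 0.20 at 12 h and -1.86 ± 0.19 at 24 h (adjusted p = 3.59e-09). Usp20 fell for a short time, with changes of -1.04 ± 0.19 at 3 h and -1.03 ± 0.19 at 6 h and 0.03 ± 0.17 at 12 h, and its levels were 11.8 ± 2.43, 5.74 ± 1.13, 5.85 ± 1.83 and 12.2 ± 1.39 CPM at 0, 3, 6 and 12 h (SD, n = 4). Usp30, anchored in the mitochondrial outer membrane, was lower at 3 h (-0.56) and higher at 24 h (0.84), the former lost without WT replicate 1 or 2. Usp9x, among the 3 genes with the highest mean CPM, was modestly higher at 3, 6 and 12 h (0.43 ± 0.08, 0.56 ± 0.08 and 0.27 ± 0.08) and at -0.09 ± 0.08 at 24 h.

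Of the remaining genes with a marked fall, Usp31 changed its direction. It held 41.2, 38.8, 38.8 and 39.1 CPM at 0 h, 57.5, 55.2, 39.4 and 44.4 CPM at 3 h and 12.1, 11.4, 11.3 and 12.2 CPM at 24 h in WT. All 4 libraries at 3 h were above the median of 0 h and all 4 at 24 h were far below it. The change was 0.32 ± 0.10 at 3 h, a call lost without WT replicate 1 or 2, and -1.75 ± 0.12 at 24 h (adjusted p = 1.51e-12). Usp37, a cell cycle enzyme whose 3′ end lies over an exon of Vil1 on the opposite strand, was lower at 3 h (-0.80 ± 0.18) and higher at 24 h (0.40 ± 0.16), the latter lost without WT replicate 1 or 3. Usp50 was lower by 1.44 ± 0.28 on the log2 scale at 24 h in WT. However, an exon of Gm10774 overlaps the 3′ end of Usp50 on the same strand. The level of Usp50 was 9.96 ± 2.86 CPM at 0 h, and its call at 3 h (-0.63 ± 0.26) was lost without WT replicate 2, 3 or 4. Usp48, lower at all 4 times in WT, reached -0.97 ± 0.09 at 6 h, and its small change at 24 h (-0.22) was lost without WT replicate 1, 2 or 3.

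Both proteasome-bound enzymes among the 55 genes fell: Usp14 by 0.60 and Uchl5 by 0.81 on the log2 scale at 12 h in WT. Usp14 and Uchl5 were lower at 6, 12 and 24 h in each genotype. Psmd14, a proteasome deubiquitinase outside the 55, went the other way in WT. It held 87.2, 86.95, 88.7 and 90.8 CPM at 0 h and 122.9, 109.4, 122.8 and 95.3 CPM at 12 h. The 3′ end of Usp14 lies over an exon of Thoc1 on the opposite strand. Uchl3, a UCH enzyme that also processes ubiquitin precursors and the related NEDD8, held 26.9, 24.4, 27.2 and 28.1 CPM at 0 h and 9.44, 8.96, 10.1 and 7.71 CPM at 12 h in WT, with no overlap. It changed by -0.40 ± 0.15, -0.99 ± 0.17, -1.55 ± 0.17 and -1.04 ± 0.16 over the 4 times, and the call at 3 h was lost without WT replicate 2 or 4. The last bases of Uchl3 and Uchl4 are near-identical, so reads may have been split between them. Usp5, which takes apart free ubiquitin chains, was lower at 24 h in WT (-0.25), a call lost without WT replicate 2 or 4, and Usp39, a splicing factor without protease activity, passed the test at 6 h (-0.42) and 12 h (-0.46) in KO and at no time in WT. The KO call at 6 h was lost without KO replicate 1 or 3 and that at 12 h without KO replicate 1.

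Further genes are given by their changes alone. In WT, Usp47 and Usp32 were higher at all 4 times, by 0.40 to 0.58 and 0.23 to 0.79 on the log2 scale, and the call of Usp32 at 3 h was lost without WT replicate 1 or 3. Usp40 was higher at all 4 times too (0.65 to 0.98), but its 3′ end lies over an exon of Dgkd on the opposite strand. Usp8, an endosomal enzyme, was higher at 6, 12 and 24 h (0.30 to 0.54) and Usp4 at 6 and 12 h (0.34 and 0.50). Usp21 was higher at 12 and 24 h (0.54 and 0.43), the latter lost without WT replicate 3. Otub1 was higher at 6 h (0.33), a call lost without WT replicate 1 or 4. Otud6b was lower at 6, 12 and 24 h (-0.38, -0.99 and -0.97) and Usp24 at 12 and 24 h (-0.71 and -0.55). Usp28 was lower at 3, 6 and 24 h (-0.64, -0.89 and -0.51), the last lost without WT replicate 4. Usp6nl, the Rab GTPase-activating protein, was lower at 6 h (-0.82) and 12 h (-0.42), the latter lost without WT replicate 1, 2 or 3. Usp34 was lower at 12 and 24 h (-0.26 and -0.40), but its last bases lie over an exon of Ahsa2 on the opposite strand. Those of Usp33 lie over an exon of Gm43857 in the same way. The near copy found for each was this same overlapping gene. Otud3 and Usp54, which passed at no time in WT, had means of 3.36 and 2.30 CPM. Otub2, left out of every test, ran from 0.305 to 2.30 CPM over the 40 libraries.

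Uchl1, best known as an abundant enzyme of neurons, was found at 10.8 to 41.9 CPM in these cultures, where the 3 neuronal markers Tubb3, Map2 and Rbfox3 summed to 2.97 CPM at most. In WT its libraries held 23.3, 26.4, 17.1 and 15.3 CPM at 0 h and 41.9, 33.1, 30.8 and 25.7 CPM at 6 h, and the groups overlapped. In WT the log2 fold change was 0.39 ± 0.22 at 3 h (adjusted p = 0.140), 0.68 ± 0.22 at 6 h (adjusted p = 0.00918), 0.44 ± 0.22 at 12 h and 0.45 ± 0.22 at 24 h. In KO it was 0.72 ± 0.27, 0.73 ± 0.28, 0.63 ± 0.27 and 0.70 ± 0.27, and the calls were at 3, 6 and 24 h. The WT call at 6 h was lost without WT replicate 1 or 3, and each of the KO calls at 3, 6 and 24 h without KO replicate 2, 3 or 4. The spread followed the replicate number: WT replicate 4 was the lowest WT library at all 5 times and KO replicate 1 the lowest KO library at all 5. In a fit with the replicate number as a block, Uchl1 in WT was called at 3 and 24 h too, as given in the closing section.

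Between the genotypes, none of these genes passed the test at any time. Of 54 genes tested at 0 h, 53 at 3 h, 52 at 6 h and 53 at 12 and 24 h, edgeR called 0, where 0%, 0.689%, 1.01%, 0.0464% and 0.0809% of all genes were called at those 5 times. At an unadjusted p under 0.05 in edgeR's test there were 0, 4, 4, 2 and 5 genes. Among all genes tested there were 900 of 11734, 1292 of 11035, 1265 of 10518, 832 of 10783 and 830 of 11122. DESeq2 called 1 gene at 3 h and 1 at 6 h, Otud1 each time, and none at the other times. The median KO minus WT difference over the genes was between -0.03 and -0.01 on the log2 scale at each of the 5 times, beside -0.01 to 0.01 over all genes, and no gene differed by as much as 2-fold. The number of genes whose 4 KO and 4 WT libraries did not overlap was 1, 5, 3, 2 and 4 at the 5 times, or 1.85%, 9.43%, 5.77%, 3.77% and 7.55%, beside 5.01%, 6.23%, 7.82%, 5.03% and 4.41% of all genes.

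Otud1 had the smallest p of these genes at 3 and 6 h. Its KO libraries held 64.4, 61.0, 52.8 and 53.7 CPM at 3 h and 109, 92.8, 114.5 and 97.2 CPM at 6 h. All 4 KO libraries were above all 4 WT libraries at both times, while at 0, 12 and 24 h the genotypes overlapped. The difference was 0.41 ± 0.09 (log2, SE) at 3 h, with adjusted p = 0.0507 in edgeR's quasi-likelihood test. At 6 h it was 0.59 ± 0.14, with adjusted p = 0.0891 in edgeR's test. With DESeq2 the adjusted p was 0.0389 and 0.00778. Leaving out 1 library at a time gave 0.0584 to 0.145 at 3 h and 0.0281 to 0.242 at 6 h, where the fits without WT replicate 1 or without WT replicate 4 passed the threshold. The difference between the responses of the genotypes was 0.17 ± 0.19 at 3 h and 0.35 ± 0.24 at 6 h (adjusted p = 1.00 at each). Neutrophil markers also differed between these libraries, with sums at 3 h of 30.5 to 43.5 (KO) and 57.0 to 71.7 CPM (WT). At 6 h the sums were 30.4 to 56.9 (KO) and 59.7 to 79.8 CPM (WT), and their part in the difference of Otud1 was not tested.

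**Figure D4:**
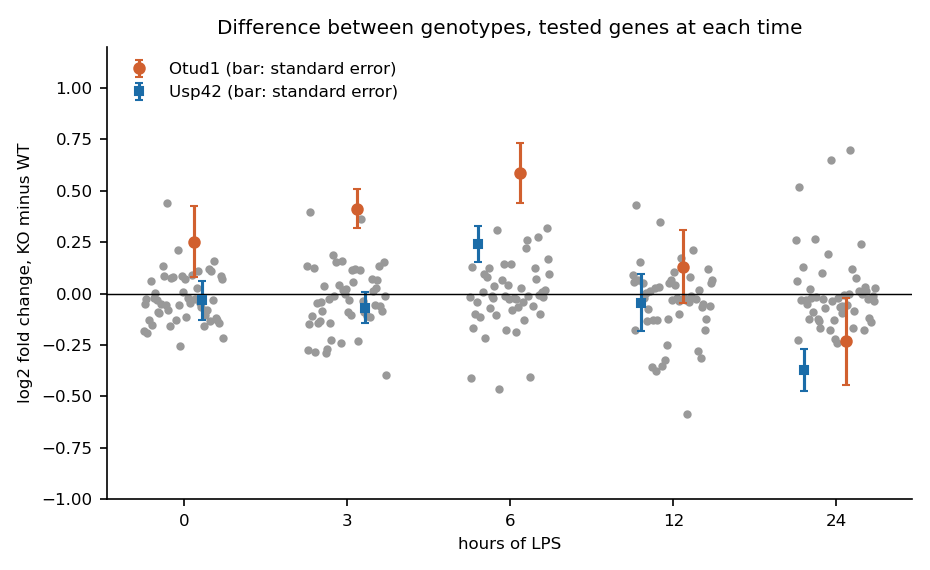
Log2 fold change, KO minus WT, of each tested gene (grey points) at 0, 3, 6, 12 and 24 h of LPS, with Otud1 as orange circles and Usp42 as blue squares, each with its standard error. Otud1 lies highest at 3 and 6 h, at 0.41 and 0.59, and near 0 at 12 h; Usp42 is above 0 at 6 h and below it at 24 h.

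The other genes with the 2 smallest p at a time were described by their values alone. At 0 h they were Usp2 (-0.16 ± 0.08, adjusted p = 0.682) and Otub1 (-0.18 ± 0.10, adjusted p = 0.692). Usp38 was next to Otud1 at 3 h, at -0.27 ± 0.10 (adjusted p = 0.281), with 26.9, 27.1, 24.0 and 28.3 CPM in KO and 32.9, 31.2, 29.8 and 34.0 CPM in WT. These 2 groups did not overlap. Usp42 differed by 0.24 ± 0.09 at 6 h (adjusted p = 0.260) and by -0.37 ± 0.10 at 24 h (adjusted p = 0.247), where KO held 41.2, 39.7, 38.3 and 38.4 CPM and WT 44.2, 58.6, 53.3 and 46.7 CPM, again without overlap. Usp53 differed by 0.43 ± 0.19 at 12 h (adjusted p = 0.622) and by 0.52 ± 0.15 at 24 h (adjusted p = 0.310), with 19.4, 19.8, 16.6 and 19.9 CPM in KO at 24 h and 14.3, 10.9, 16.3 and 10.6 CPM in WT. The lowest KO library was just above the highest WT library. Usp21, an enzyme described to act on the kinase RIPK1, was at -0.35 ± 0.16 at 12 h (adjusted p = 0.630) and at -0.40 ± 0.17 and -0.46 ± 0.18 at 3 and 6 h (adjusted p = 0.386 and 0.282).

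The response to LPS itself was compared by an interaction term for each time. No gene of the 54 passed at 3, 6, 12 or 24 h in edgeR's test, where 0%, 0%, 0% and 0.00818% of all genes did. At an unadjusted p under 0.05 in that test there were 3, 1, 0 and 2. Among all genes tested there were 342 of 12165, 529 of 12096, 396 of 12164 and 474 of 12226. The smallest p was that of Otub1, which binds and blocks ubiquitin-conjugating enzymes, at 24 h, with a response 0.44 ± 0.14 (log2, SE) larger in KO and an adjusted p of 1.00. Of the genes called against 0 h, 26 were called in both genotypes at 3 h, 32 at 6 h, 36 at 12 h and 34 at 24 h, all in the same direction. They made up 86.7%, 82.1%, 97.3% and 81.0% of the WT calls and 89.7%, 94.1%, 94.7% and 94.4% of the KO calls. The same overlap was not computed over all genes, so these shares are not shown to be particular to this set. The values at 6 h stood side by side at 2.55 in WT and 2.52 in KO for Usp25, 2.09 and 2.24 for Usp12, -1.93 and -1.81 for Usp36, and -1.70 in both for Usp10.

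Other genes of ubiquitin metabolism, from lists of genes that are not among the 55, give the setting. Of 25 tested deubiquitinases whose symbols the rule does not match, 9 were higher and 4 lower at 3 h in WT and 12 and 6 at 6 h. These 25 include OTU enzymes and the USP enzyme Cyld. Among all genes in WT, 26.6% were higher and 28.0% lower at 3 h, and 31.0% and 37.1% at 6 h. Tnfaip3, the NF-kB-induced OTU enzyme A20, rose by 3.57 ± 0.26 (log2, SE) at 6 h, Zup1 by 2.93 ± 0.10 and Vcpip1 by 1.85 ± 0.08, while Mindy1 fell by 1.59 ± 0.10. All 6 genes for ubiquitin or its activating enzymes were higher at 6 h, among them Uba6 (0.93 ± 0.08), Ubb (0.77 ± 0.06) and Uba1 (0.69 ± 0.07). Of 7 SUMO proteases, 2 were higher and 4 lower at 6 h, with Senp3 at -1.17 ± 0.31 and Senp7 at 0.62 ± 0.11. Of 9 cofactors of USP enzymes, 3 were higher and 1 lower at 6 h in WT, 4 and 4 at 12 h, and 3 and 4 at 24 h. Over all genes in WT, 32.3% were higher and 35.9% lower at 12 h, and 34.5% and 35.4% at 24 h. The called cofactors at 6 h ran from -0.49 ± 0.13 (Gmps, a partner of Usp7) to 0.36 ± 0.11 (Atxn7l3, a partner of Usp22). At 12 h, picked after the values were seen, Sgf29 was at -1.32 ± 0.23, Gmps at -1.11 ± 0.13 and G3bp1, the partner of Usp10, at -0.79 ± 0.10. Between the genotypes, 1 gene of these lists was higher in KO at 3 h, Ubb by 0.50, and 1 at 6 h, the ISG15 and ubiquitin ligase Trim25 by 0.41. Of all genes tested, 0.689% were called at 3 h and 1.01% at 6 h, in either direction. The lists were not tested against these shares.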

How the data were processed

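Per the labels' protocols, total RNA of mouse bone marrow-derived macrophages was made into QuantSeq 3′ FWD libraries. The authors deposited 1 table of RSEM expected counts per Ensembl gene for 40 libraries; the values were whole numbers, not normalized. The submitters' processing notes name the build GRCm39, the aligner STAR 2.7.10a, the quantifier RSEM 1.3.3, UMI-tools 1.1.2, the trimmer cutadapt 3.7 and FastQC 0.11.9, with neither order nor role in this study. The sources used here do not give the annotation release, the use of strand or any collapsing of molecular identifiers.

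From these expected counts as deposited, edgeR 4.0.16 (R 4.3.3) was run with TMM scaling, filterByExpr (minimum count 10), robust quasi-likelihood fits and Benjamini-Hochberg adjustment over all genes tested, threshold 0.05. KO and WT were compared in the 8 libraries of a time, LPS times in the 20 libraries of a genotype, and responses between genotypes in 16 libraries by an interaction term. No sample was left out of the main fits. P-values measure the spread between these libraries. Every pair of replicates differed beyond counting noise (60 pairs). Alternatives were RLE size factors, no filter, DESeq2 1.42.0, each replicate left out, the replicate number as a block, 1 fit of 40 libraries, and sex read from Xist. The fits were tested on simulated data. Motifs and 3′ overlaps were searched in RefSeq windows (GRCm38.p6) and in GENCODE vM21 over the last 300 bases, with near copies at 95% identity over at least 100 bases; no coordinates were converted to GRCm39.

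Genes given with values in every library or full statistics were the 4 markers, the 5 highest and 5 lowest called changes at 3 and 24 h in WT, the 2 smallest p between genotypes at each time and the 3 highest mean CPM; others stand by counts, ranges and roles, and the values of other genes of a role were picked after they were seen. The genes, lists and tests were chosen with earlier results of these data known. Values of some genes of the related lists are not reported here.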

Additional observations from a re-analysis of the deposited data

Results flagged for a closer look

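Each of the 23 genes described in detail was examined in each of the 10 groups of 4 libraries for a highest or lowest library far from its neighbours by Dixon's test, and 20 of 230 groups were marked. Chance marks about 1 group in 20. KO replicate 1 was the library apart in 8 of the 20.

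At 0 h, KO replicate 1 was low for Uchl1 (10.8 CPM, beside 20.8 to 21.3 in the other 3), Usp1 (78.2, beside 112.7 to 116), Usp36 (16.5, beside 23.1 to 23.7) and Usp7 (136, beside 191 to 199.5). At 3 h it was low for Usp20 (4.48 CPM, beside 6.93 to 7.06), Usp50 (4.96, beside 9.32 to 9.66) and Otub1 (21.5, beside 28.2 to 29.2), and at 12 h for Usp37 (13.7, beside 15.5 to 15.8). Without KO replicate 1, 15 of these genes were higher and 7 lower than at 0 h in KO at 3 h, where all replicates gave 19 and 10. At 24 h the numbers were 18 and 13 in place of 23 and 13. Over the fits that each left out 1 KO replicate, 14 to 17 were higher and 7 to 9 lower at 3 h. At 24 h these ranges were 17 to 20 and 13 to 15, so the drop in genes called higher was not particular to KO replicate 1.

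The other KO libraries apart were replicate 2 for Usp36 at 12 h (8.71 CPM, beside 9.93 to 10.0) and Usp9x at 24 h (154, beside 164 to 166). Replicate 3 was low for Usp53 at 24 h (16.6, beside 19.4 to 19.9) and high for Usp21 at 3 h (13.9, beside 9.20 to 9.60). In WT, replicate 1 was high for Usp20 at 0 h (15.4 CPM, beside 10.2 to 10.8) and 24 h (15.7, beside 12.7 to 13.0) and for Usp31 at 0 h (41.2, beside 38.8 to 39.1). WT replicate 2 was high for Otud1 at 24 h (19.0, beside 10.2 to 11.6), Otub1 at 12 h (32.6, beside 26.5 to 27.5) and Usp7 at 12 h (222, beside 204 to 206). WT replicate 4 was high for Usp36 at 6 h (9.65, beside 4.49 to 4.88) and Usp12 at 3 h (171, beside 140 to 145).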

How the results depend on the processing

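The number of genes called between KO and WT went from 0 to 1 at 3 h with no filter or DESeq2, and from 0 to 1 at 6 h with no filter, DESeq2, the replicate block or 1 fit of 40 libraries, each time Otud1. Leaving out 1 library gave 0 to 1 at 6 h. The adjusted p of Otud1 ranged from 0.00445 (no filter) to 0.348 (1 fit of 40 libraries) at 3 h and from 1.36e-06 (no filter) to 0.242 at 6 h; the cause was not tested. The number lower at 3 h in WT went from 11 to 7 with DESeq2 and 7 to 10 when 1 replicate was left out. Signs turned for values near 0: Otub1 at 3 h in WT (0.0044 with RLE, 0.0072 with DESeq2; -0.08 to 0.0414 leaving 1 out) and Usp38 (-0.0061 with no filter). Leaving out 1 KO replicate gave -0.2177 to 0.1435 for Usp50 and -0.157 to 0.1544 for Usp21 at 3 h, and -0.0892 to 0.014 for Usp9x at 24 h. RLE scaling shifted the log2 changes of these genes against 0 h by a median of 0.03 to 0.08.

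Replicate numbers pair across times by no statement in the labels, and correlations of same-numbered libraries ran from -0.109 to 0.379 in KO and -0.0064 to 0.482 in WT. Since not every pair was above 0.1, the numbers were read as names. As a hint from the data, 37 of 40 libraries correlated best with their own number, and Xist was on the side of its number's mean in 40 of 40. With the replicate block, Otud1 was called at 6 h (adjusted p = 0.0249) and had adjusted p = 0.178 at 3 h, and Uchl1 in WT was called at 3 h (0.0037) and 24 h (0.0003). Depth kept Otub2 out of every test.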
